A study of Drosophila melanogaster with 6 samples.

Results

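Peptidoglycan recognition proteins (PGRPs) bind the cell wall polymer of bacteria, and the members with amidase activity also cut it, releasing the stem peptides from the glycan chain and so destroying the fragments that trigger the immune deficiency (IMD) pathway. In *Drosophila* the fat body and the gut are the best known sites where such enzymes dampen IMD signaling, the NF-κB cascade that ends in Relish and induces antibacterial peptides. The 6 genes of this amidase group, *PGRP-LB*, *PGRP-SB1*, *PGRP-SB2*, *PGRP-SC1a*, *PGRP-SC1b* and *PGRP-SC2*, were chosen by symbol for the activity of their products and not by any measured value, and all 6 were found among the 17558 genes listed.

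The samples were fat body cells dissociated from abdominal carcasses of adult *Drosophila melanogaster* females, as 3 libraries of control RNAi and 3 libraries labelled *svp* RNAi. Both groups were *y w* and carried *PromE800-Gal4*, which drives in oenocytes, *3.1Lsp2-Gal4*, which drives in adipocytes, and the temperature-sensitive repressor *tubGal80ts*. Females were raised at 18°, collected at 0 to 2 days of age, mated, and shifted to 29° for 5 days to release the drivers, and 100 females of each genotype were pooled for dissection, so that each library is a pool and other cells of the abdomen could come along. The control hairpin was *UAS-Luc JF01355*, against firefly luciferase (the sample labels give these libraries as wild type), and the other was *UAS-svp GD1546*, against the nuclear receptor gene *svp*. Because the hairpins came from different stock collections, their targets and their stocks cannot be told apart.

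Totals of fragments assigned to genes ranged from 15648948 to 19476599 per library. CPM brings each count to a common library total after edgeR's TMM scaling (factors from 0.824 to 1.39), and FPKM, as deposited, also divides by a length per gene. A count of 0 allows up to 3 counts, or from 0.128 to 0.215 CPM depending on the library, a limit for counting error only. The *svp* transcript itself had counts of 678, 1141 and 1168 under control RNAi against 1480, 1214 and 1421 where *svp* RNAi was the label, so it was not lower in the latter (log2 fold change 0.35, standard error 0.39, edgeR adjusted p = 1.00), and every direction below is between labelled groups. Markers of other organs were present. The 18 midgut genes, mainly digestive enzymes, had a mean log2 CPM of 5.74 in control RNAi replicate 1 and 3.98 and 1.60 in replicates 3 and 1 labelled *svp* RNAi, against -0.639 to -0.441 in the other 3 libraries. In bulk samples, fewer cells of a type and less RNA per cell cannot be told apart.

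*PGRP-SC2* was the most abundant amidase transcript of the control fat bodies and had a 19.0-fold lower level in the libraries labelled *svp* RNAi, without passing the threshold of edgeR, whereas *PGRP-SB1* and *PGRP-LB* overlapped between the groups and the other 3 members were close to the limit of detection. Per length, the control FPKM was 733 ± 188 (SD, n = 3) for *PGRP-SC2*, 205 ± 92.3 (SD, n = 3) for *PGRP-SB1* and 34.5 ± 9.07 (SD, n = 3) for *PGRP-LB*. These 3 levels followed that order in each control library, and their ranges did not overlap. *PGRP-SB2*, *PGRP-SC1b* and *PGRP-SC1a* came last, with mean control FPKM of 0.366, 0.236 and 0.164, and their ranges over the controls overlapped. Where *svp* RNAi was the label the order differed at the top, with *PGRP-SB1* at 133 ± 57.8 FPKM (SD, n = 3), *PGRP-SC2* at 41.5 ± 9.17 FPKM (SD, n = 3) and *PGRP-LB* at 35.4 ± 7.31 FPKM (SD, n = 3). The ranges of *PGRP-SC2* and *PGRP-LB* overlapped there.

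**Figure D1:**
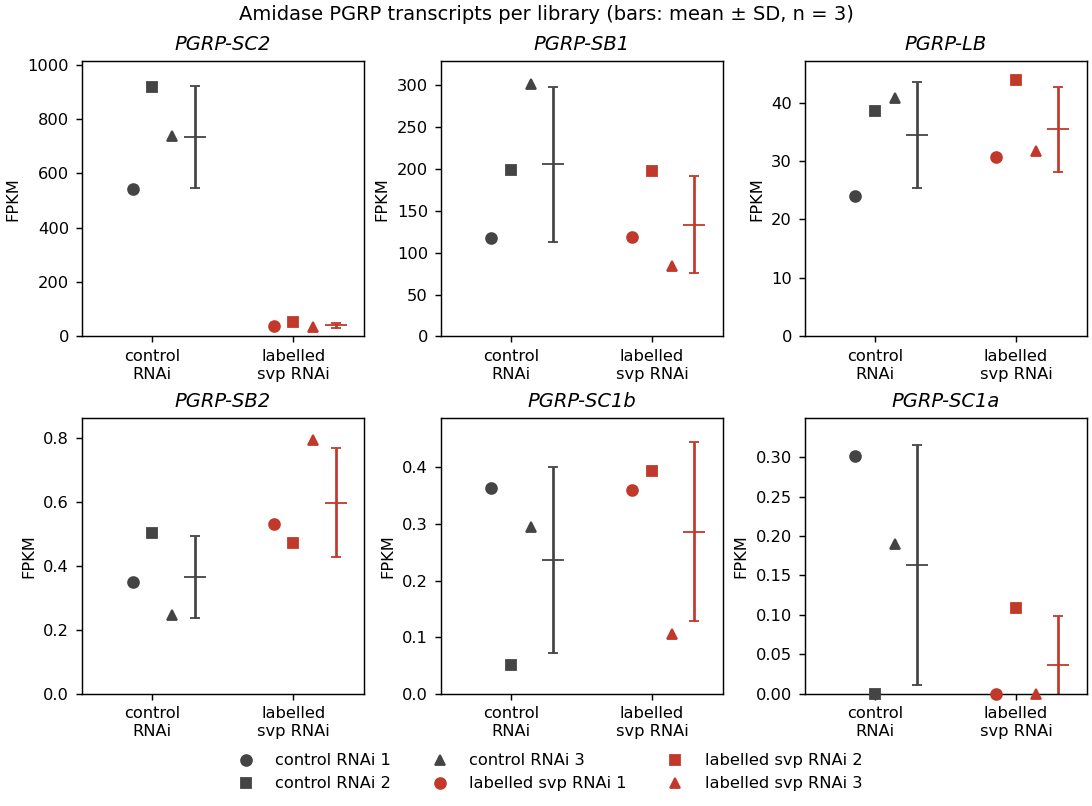
FPKM (vertical axis, linear and starting at 0, a separate scale for each gene) of the 6 amidase PGRP genes in each of the 6 libraries, with symbols for replicates 1 to 3 and bars for the mean ± SD of each group. *PGRP-SC2* lies between 543 and 918 in the controls and between 35.3 and 52.0 in the libraries labelled *svp* RNAi, whereas the points of the other 5 genes overlap between the groups. The lower SD bar of *PGRP-SC1a* is cut at 0 on the right.

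Only 3 of the 6 members, *PGRP-SC2*, *PGRP-SB1* and *PGRP-LB*, passed edgeR's filter on low counts and entered the test across 9277 genes. Of these 3 members, edgeR's quasi-likelihood test called 0 at an adjusted p under 0.05, where it called 0.097% of all genes tested (0.0755% in the lower direction), and 1 member, *PGRP-SC2*, had an unadjusted p under 0.05. DESeq2, which was also run on the counts, called that 1 member, where it called 0.707% of genes lower.

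*PGRP-SC2* (FBgn0043575; chromosome 2R from 8716950 to 8717695 on BDGP6, forward strand) is annotated with 1 transcript of 1 exon. It encodes a secreted amidase that scavenges peptidoglycan and restrains the IMD pathway. The gene had counts of 6863, 12065 and 9856 under control RNAi against 539, 607 and 440 where the label was *svp* RNAi. The lowest control thus held more than every library of the other group, and CPM of the 2 groups did not overlap either, as for 4.82% of all genes tested in this direction. Its CPM was 592 ± 271 (SD, n = 3) against 31.1 ± 10.7 (SD, n = 3), and its log2 fold change was -4.25 (standard error 0.49, 95% interval -5.41 to -3.10). On a linear scale the transcript was 19.0-fold lower, with an interval from 8.55-fold to 42.4-fold.

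The edgeR adjusted p of *PGRP-SC2* was 0.0523, just above the threshold. It was 0.00323 without control RNAi replicate 1, a fit that called 0.473% of genes lower, and from 0.155 to 0.301 in the 5 fits that each left out another library. DESeq2 gave an adjusted p of 7.0e-19. Among the 9277 genes tested, 24 had a lower log2 fold change and 9 a smaller p. Mean FPKM was 17.7-fold higher in the controls (p = 0.1 by exact two-sided permutation, as small as 3 libraries against 3 allow). By FPKM the gene ranked between 122 and 159 of all genes in the control libraries and between 1204 and 1779 in the libraries labelled *svp* RNAi.

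*PGRP-SC2* lies at the end of a cluster with *PGRP-SC1a* and *PGRP-SC1b*. Of the genes beside it, only *CG14767* passed the filter on low counts, and it gave no comparable difference. To the right of *PGRP-SC2*, 321 bases away and on the opposite strand, *CG14767* had counts of 2255, 2260 and 2218 against 2840, 2338 and 2087. The log2 fold change was 0.06 (standard error 0.25, 95% interval -0.54 to 0.66, edgeR adjusted p = 1.00). To the left of *PGRP-SC2*, after a gap of 1855 bases, lies *PGRP-SC1b*, which failed that filter.

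*PGRP-SC1b* (FBgn0033327; chromosome 2R from 8713446 to 8715094) and *PGRP-SC1a* (FBgn0043576; chromosome 2R from 8709733 to 8710320) are near-identical copies that encode secreted amidases, and *PGRP-SC1a* is also known for a part in the phagocytosis of bacteria. *PGRP-SC1b* had counts of 7, 1 and 6 under control RNAi against 8, 7 and 2 in the other group. *PGRP-SC1a* had 3, 0 and 2 counts against 0, 1 and 0, so no library exceeded 3 counts, which a count of 0 also allows. A difference was not detectable at this depth for either gene, and their groups overlapped (exact two-sided permutation tests on FPKM, p = 0.6 and p = 0.4). Reads that align to both copies may have been dropped or split, since their treatment is not stated, so these counts are uncertain. Summed, the 2 copies still failed the filter on low counts.

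The other genes of this stretch were low as well. *CG14743*, between the 2 copies on the opposite strand, had counts of 0, 4 and 2 under control RNAi against 9, 5 and 2. *CG14744*, to the left of *PGRP-SC1a*, had 0 counts in each control against 4, 2 and 0 in the other group.

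*PGRP-SB1* (FBgn0043578; chromosome 3L from 16727299 to 16727989, reverse strand) encodes a small secreted amidase that is induced by infection. It had counts of 1236, 2171 and 3366 under control RNAi against 1437, 1922 and 879 under the *svp* RNAi label. Control RNAi replicate 3 was the highest of all and replicate 3 labelled *svp* RNAi the lowest, and the groups overlapped. CPM was 142 ± 87.6 (SD, n = 3) against 84.5 ± 46.4 (SD, n = 3). The log2 fold change of -0.75 (standard error 0.59, adjusted p = 1.00 by edgeR) had a 95% interval from -2.15 to 0.64, so that neither a 4.44-fold decrease nor a 1.56-fold increase lies outside it. On FPKM the exact two-sided permutation test gave p = 0.4.

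*PGRP-SB2* (FBgn0043577; chromosome 3L from 16726541 to 16727288, forward strand), whose product is a predicted amidase, ends 10 bases from the end of *PGRP-SB1*, with which it converges. Although *PGRP-SB1* had from 879 to 3366 counts, *PGRP-SB2* had counts of only 4, 6 and 3 under control RNAi against 7, 5 and 9 in the other group. Its FPKM of 0.366 ± 0.129 (SD, n = 3) and 0.598 ± 0.172 (SD, n = 3) overlapped between the groups (exact two-sided permutation test, p = 0.2), and a difference was not detectable at this depth. On the other side of *PGRP-SB1*, 506 bases away, *Dbp73D* differed by -0.05 on the log2 scale (standard error 0.38, adjusted p = 1.00 by edgeR), and on the far side of *PGRP-SB2*, *CG13026* had at most 4 counts in a library.

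*PGRP-LB* (FBgn0037906; chromosome 3R from 11452849 to 11460552, reverse strand) encodes the main amidase known to degrade the diaminopimelic acid type of peptidoglycan, and its 6 annotated transcripts give secreted and intracellular forms that counts per gene cannot separate. It had counts of 445, 741 and 797 under control RNAi against 653, 748 and 577 under the *svp* RNAi label. The 3 latter counts all lay between the lowest and the highest control. CPM was 41.0 ± 19.2 (SD, n = 3) against 38.8 ± 12.9 (SD, n = 3), with a log2 fold change of -0.08 (standard error 0.43, 95% interval -1.11 to 0.96, edgeR adjusted p = 1.00). The sign changed with the setting, and on FPKM the exact two-sided permutation test gave p = 1.00. The gene lies within *CG17230*, which is annotated on the opposite strand and had counts of 269, 100 and 109 against 173, 56 and 139. Whether the counting used strand is not stated, so reads of these 2 genes may not be fully separated. To the left of *PGRP-LB*, *sals* had counts of 63, 290 and 75 against 140, 126 and 145 (log2 fold change -0.20, standard error 0.70), and to its right *CR45581* had at most 3 counts in a library.

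Ratios between members of the same library depend on neither its depth nor its scaling. For each *PGRP-LB* transcript per length, there were 22.5, 23.8 and 18.1 *PGRP-SC2* transcripts under control RNAi but 1.21, 1.19 and 1.11 in the other group. The ratio of *PGRP-SC2* to *PGRP-SB1* was 4.64, 4.64 and 2.45 against 0.313, 0.264 and 0.418, so that *PGRP-SB1* took the first place in each library of the latter group. The ratio of *PGRP-SB1* to *PGRP-LB* was 4.86, 5.13 and 7.39 against 3.85, 4.50 and 2.67. None of the 3 ratios overlapped between the groups, the last only narrowly (4.86 against 4.50), although *PGRP-SB1* and *PGRP-LB* each overlapped singly. Each ratio gave p = 0.1 in an exact two-sided permutation test, the smallest that 3 libraries against 3 allow. The 3 ratios share genes and are not independent, and the share of other gene pairs that separate in this way was not computed.

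**Figure D2:**
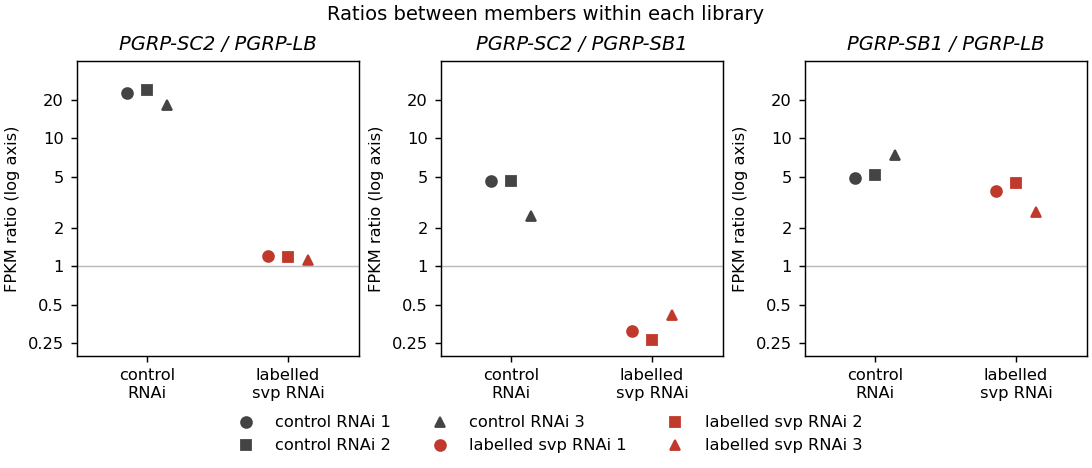
FPKM ratio between pairs of amidase PGRP genes within each library (vertical axis, logarithmic), for control RNAi and labelled *svp* RNAi, with symbols for replicates 1 to 3 and a grey line at a ratio of 1. The *PGRP-SC2* to *PGRP-LB* ratio lies between 18.1 and 23.8 in the controls and between 1.11 and 1.21 in the libraries labelled *svp* RNAi.

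Added over the 6 members, amidase FPKM was 685, 1156 and 1079 under control RNAi against 187, 294 and 152 in the other group, with no overlap. *PGRP-SC2* made up 75.7% ± 6.42 (SD, n = 3) of the amidase sum under control RNAi and 20.2% ± 2.77 (SD, n = 3) in the other group. Without it, the sum of the remaining 5 members was 241 ± 100.3 FPKM (SD, n = 3) against 170 ± 64.8 FPKM (SD, n = 3), and the groups overlapped. The share of *PGRP-SB1* in the amidase sum was 20.7% ± 6.24 (SD, n = 3) under control RNAi and 61.9% ± 5.93 (SD, n = 3) in the other group.

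Since PGRP amidases are also known from the gut, the members were set beside the midgut markers of each library. Control RNAi replicate 1 had the highest midgut marker level and the lowest *PGRP-SC2* CPM of the controls, at 292 against 818 and 666. Replicates 3 and 1 labelled *svp* RNAi, with the next highest levels, had a *PGRP-SC2* CPM of 25.5 and 24.4 against 43.4 in replicate 2. Within each group the transcript was thus highest where the midgut marker level was low. Without control RNAi replicate 1 and replicate 3 labelled *svp* RNAi, a setting chosen after seeing the data that keeps replicate 1 with its midgut level of 1.60, the log2 fold change was -4.42 (standard error 0.40, adjusted p = 0.0122 by edgeR).

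*PGRP-SB1* and *PGRP-LB* were divided along the same line within both groups. CPM of *PGRP-LB* was 50.3, 53.9 and 53.5 in the 3 libraries with the lowest midgut marker level, and 18.9, 29.6 and 33.4 in the other 3. For *PGRP-SB1* it was 147, 228 and 138 in the former and 52.6, 65.1 and 50.9 in the latter. Of the 9276 other genes tested, 11.3% ranked the libraries within each group in exactly the order of *PGRP-LB*, and 3.88% in that of *PGRP-SB1*. An exact order is stricter than the division by midgut marker level, and the share of genes with that division was not computed. The TMM factors behind these CPM followed the same line. They ranged from 0.824 to 0.893 in the libraries with the lowest midgut marker level and from 1.03 to 1.39 in the others. The part of midgut RNA in the values of these 3 members was not tested.

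**Figure D3:**
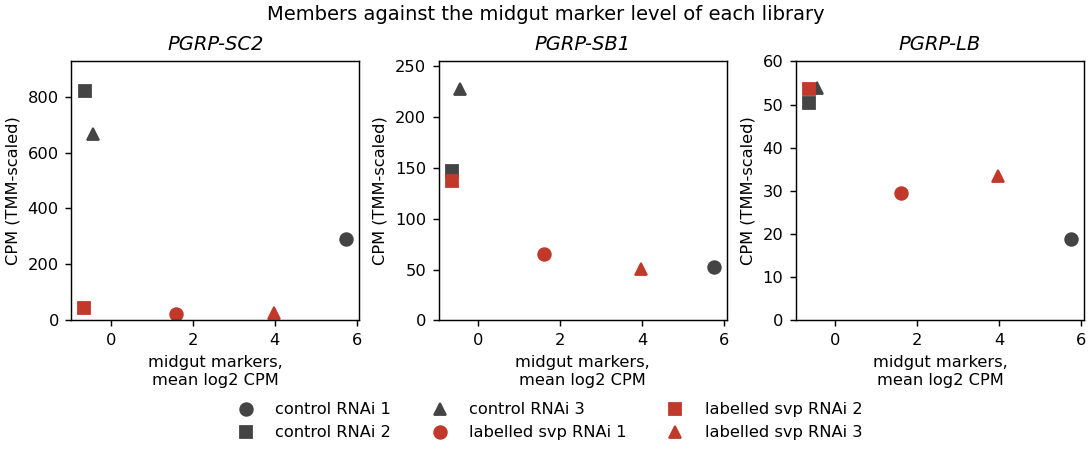
TMM-scaled CPM of *PGRP-SC2*, *PGRP-SB1* and *PGRP-LB* (vertical axes, linear from 0) against the mean log2 CPM of 18 midgut markers (horizontal axis), 1 point per library. *PGRP-SC2* is below 44 in the libraries labelled *svp* RNAi at every midgut marker level, whereas *PGRP-LB* and *PGRP-SB1* are highest in the 3 libraries at the left, which come from both groups.

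Of the 15 midgut markers tested between the groups, edgeR called 0 and 3 had an unadjusted p under 0.05, *LysD*, *LysB* and *Amy-p*, while DESeq2 called 0 but gave no adjusted p for 11 of the 15. The lysozyme genes *LysD* and *LysB*, similar copies whose reads may be shared, were lower along with *PGRP-SC2*. Their CPM did not overlap between the groups, as for 4.82% of all genes tested in this direction. *LysD* had counts of 1201, 65 and 82 under control RNAi against 4, 7 and 5 (log2 fold change -6.01, standard error 1.23, adjusted p = 0.276 by edgeR and 0.0332 without control RNAi replicate 1). *LysB* had counts of 724, 32 and 28 against 12, 1 and 5 (log2 fold change -5.16, standard error 1.39, adjusted p = 0.531). *LysE*, the other lysozyme gene of the list, was not lower, with counts of 55, 25 and 13 against 96, 28 and 83. Its log2 fold change was 1.17 (standard error 0.52), and its groups overlapped. *Amy-p*, an amylase gene, also had a positive log2 fold change, with counts of 8291, 4036 and 5125 against 10236, 8544 and 8029 (log2 fold change 0.66, standard error 0.22, edgeR adjusted p = 0.795). Its counts overlapped, but its CPM did not, at 274 to 353 under control RNAi against 464 to 611 in the other group. Of the 18 midgut markers, 9 and 6 were at 0 in control RNAi replicates 2 and 3 and 7 in replicate 2 labelled *svp* RNAi, while the others still had counts there. Summed CPM of the list ranged from 446 to 2775 under control RNAi against 810 to 1664 in the other group, and its part in the *PGRP-SC2* difference was not tested.

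The other marker lists overlapped between the groups in summed CPM. That of the 8 hemocyte markers ranged from 873 to 2591 against 1065 to 2390, that of the 10 ovary markers from 441 to 1609 against 957 to 2565, and that of the 3 oenocyte markers found from 4209 to 19137 against 8631 to 12862. The 8 muscle markers summed to 1287 CPM in control RNAi replicate 2, which also had the highest *PGRP-SC2* level, and to between 191 and 486 CPM in the other 5 libraries. The 9 adult fat body markers found, among them the yolk protein genes, summed to between 58586 and 164338 CPM in the controls, lowest in replicate 1, and to between 144386 and 180950 CPM in the other group. Of these, edgeR called 1, the larval serum protein gene *Lsp2*, which was lower. No marker in these 6 lists was at 0 in all libraries.

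The 7 PGRP genes without amidase activity sense peptidoglycan for the Toll and IMD pathways or modulate these receptors. The 6 that passed the filter on low counts showed no difference of this size. *PGRP-LD*, which failed it, had only 6, 2 and 2 counts under control RNAi against 8, 10 and 13 in the other group. Its CPM did not overlap between the groups, at counts too low for the test. Of the 6 that were tested, edgeR called 0 in either direction, 0 had an unadjusted p under 0.05, and DESeq2 called 0. Their median log2 fold change was -0.09, beside -0.06 over all genes tested, and the values ranged from -0.55 to 0.24. The 3 with the smallest p were *PGRP-LA*, *PGRP-SA* and *PGRP-LC*. *PGRP-LA*, a regulatory member, had counts of 600, 1348 and 886 under control RNAi against 671, 777 and 595 (log2 fold change -0.55, standard error 0.48). For *PGRP-SA*, a circulating sensor upstream of Toll, there were 1340, 2707 and 2830 counts against 1607, 1962 and 1456 (log2 fold change -0.54, standard error 0.49). *PGRP-LC*, the membrane receptor of the IMD pathway, had 1192, 1384 and 1252 counts against 1619, 1550 and 1504 (log2 fold change 0.24, standard error 0.29). The groups of all 3 genes overlapped in CPM. For *PGRP-LC*, counts and FPKM, which lack the TMM scaling, did not overlap. Its FPKM ran from 36.8 to 41.5 under control RNAi against 43.8 to 52.2 in the other group. The share of all genes that separate in the higher direction was not computed, so the separation of *PGRP-LC* and *PGRP-LD* is only described. The ratio of summed amidase FPKM to summed FPKM of these 7 genes was 2.98, 3.15 and 2.88 under control RNAi against 0.784, 0.819 and 0.585 in the other group, again with no overlap. *PGRP-SC2* made up 75.7% of that amidase sum under control RNAi, so the ratio largely repeats its difference. The amidase sum without *PGRP-SC2* and the non-amidase sum each overlapped between the groups.

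**Figure D4:**
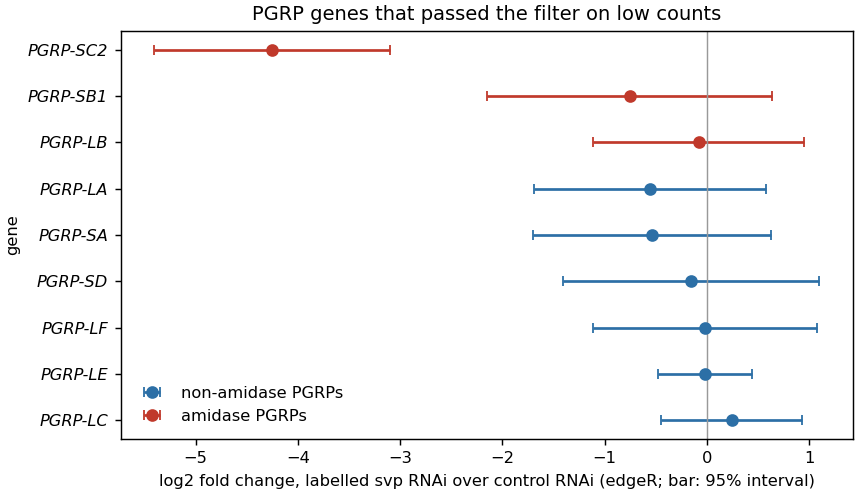
Log2 fold change of labelled *svp* RNAi over control RNAi with its 95% interval (edgeR, 3 libraries per group) for the 3 amidase and 6 non-amidase PGRP genes that passed the filter on low counts. The interval of *PGRP-SC2* runs from -5.41 to -3.10, and the intervals of the other 8 genes include 0.

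Further along the IMD pathway, 18 of 18 signaling components were tested, and edgeR called 0 in either direction, with 0 at an unadjusted p under 0.05 and 0 called by DESeq2. Their log2 fold changes, 6 above 0 and 12 below, ranged from -0.34 to 0.23 with a median of -0.07. The smallest p values belonged to *Fadd*, the adaptor of the IMD complex, to *Uev1A*, a ubiquitin-conjugating enzyme variant, and to *CYLD*, a deubiquitinase. *Fadd* had counts of 241, 147 and 130 under control RNAi against 191, 83 and 142 (log2 fold change -0.34, standard error 0.25). The values of *Uev1A* and *CYLD* were -0.16 (standard error 0.18) and 0.23 (standard error 0.26).

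Of the 12 antibacterial peptide genes known as IMD targets, all were tested, and edgeR and DESeq2 called 0 in either direction, with 0 at an unadjusted p under 0.05. There were 8 log2 fold changes above 0 and 4 below, with a median of 0.35 and a range from -0.63 to 1.64. *CecA2*, a cecropin, had the smallest p, with counts of 135, 395 and 252 under control RNAi against 986, 725 and 385 (log2 fold change 1.26, standard error 0.58, 95% interval -0.11 to 2.63, edgeR adjusted p = 1.00). *edin*, an immune-induced peptide, had 30, 38 and 35 counts against 50, 216 and 29, with replicate 2 labelled *svp* RNAi far above the other 5 libraries (log2 fold change 1.64, standard error 0.89). *DptB*, a diptericin, had 604, 915 and 1350 counts against 1482, 3148 and 963 (log2 fold change 0.96, standard error 0.66).

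Profiles over the 6 libraries were compared by the root mean square difference of log2 CPM after centring each gene on its own mean, as a description without a test. The profile most like that of *PGRP-SC2* was that of *Lsp2*, which encodes a larval serum protein, at 0.305 log2 units, with counts of 7827, 8062 and 8361 under control RNAi against 626, 478 and 320. It was followed by *CG12522*, at 0.369, with 46, 74 and 65 counts against 0, 1 and 2, and by *Lsp1beta*, a further larval serum protein gene, at 0.387, with 35384, 39635 and 34155 counts against 3635, 3003 and 1482. *PGRP-SB1* and *PGRP-LB* stood at 1.80 and 2.10 from *PGRP-SC2*. The genes most like *PGRP-LB* were *CG6332*, *CG31777* and *fat-spondin*, at 0.0539, 0.0629 and 0.0663, and those most like *PGRP-SB1* were *CG5527*, *CG18067* and *CG9119*, at 0.110, 0.190 and 0.203. These genes were picked as the nearest of all tested, so that members lie farther away is no result. Between *PGRP-LB* and *PGRP-SB1* the difference was 0.443. Of the 9276 other genes tested, *PGRP-LB* ranked 287 in likeness to *PGRP-SB1*, and *PGRP-SB1* ranked 2567 in likeness to *PGRP-LB*. *PGRP-SC2* ranked 9122 and 9195 in likeness to *PGRP-SB1* and *PGRP-LB*, which ranked 461 and 2599 in likeness to *PGRP-SC2*.

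**Figure D5:**
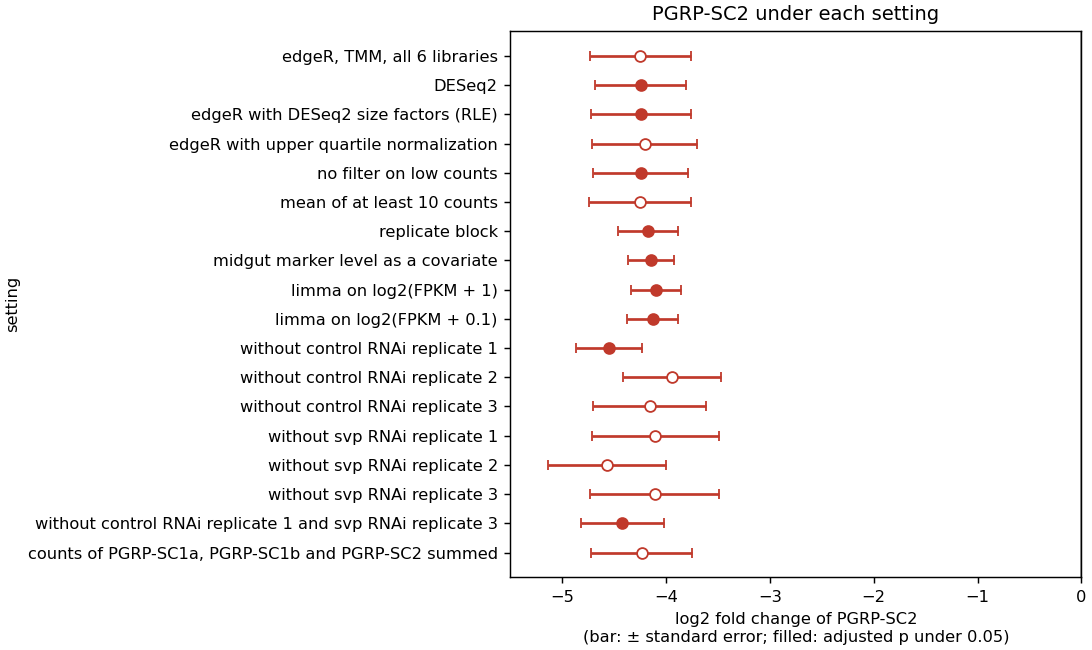
Log2 fold change of *PGRP-SC2*, labelled *svp* RNAi over control RNAi, under each setting that gave a value (points, with bars of 1 standard error; filled where the adjusted p is under 0.05). The estimates lie between -4.57 and -3.95, while the adjusted p crosses the threshold with the setting.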

How the data were processed

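The authors dissociated fat body cells from abdominal carcasses, prepared NEBNext Ultra libraries and sequenced them as pairs of 150 bases. Reads were aligned by the authors with TopHat to the Ensembl reference, and HTSeq counts per gene were deposited without normalization. The strand setting, the treatment of reads with several alignments and the tool versions are not given in the sources used here. The authors also deposited FPKM, which corresponds in each of the 13475 detected genes to the count, the library total and a constant length at or below the listed one (1090 of 1775 bases for *PGRP-LB*).

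Groups were compared by the quasi-likelihood test of edgeR 4.0.16 (TMM, filterByExpr; R 4.3.3), and p-values were adjusted over 9277 genes (Benjamini-Hochberg, threshold 0.05). Intervals are at 95% from the same fit. Alternatives were DESeq2 1.42.0, limma 3.58.1 on log2(FPKM + 1) or log2(FPKM + 0.1), other scalings and filters, a replicate block, a midgut covariate, summed copies and leaving out libraries. The fits were tested on simulated counts. Single values were compared by exact permutation of libraries. Of the 17558 genes, 16959 had the same coordinates in the BDGP6 annotation, the 6 members included.

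The members, lists and tests were chosen with earlier results of these data known. Named genes were the members, any gene called and the 3 smallest p values in each PGRP or IMD list, the nearest neighbours of each member, the 3 most similar profiles and *svp*. *LysD*, *LysB*, *LysE*, *Amy-p* and *Lsp2* among the markers, *PGRP-LD*, *CG17230* and the peptide genes of the closing section were named after their values were seen. The methods describe independent experiments, but the labels name no separate cohort for each library, so p-values measure the spread between these libraries. Promoter and protein sequences were not used here.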

Additional observations from a re-analysis of the deposited data

How the results depend on the processing

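edgeR called 9 genes over all genes tested, beside 146 with DESeq2, 14 with DESeq2 size factors, 25 without a filter on low counts, 89 with the midgut marker level as a covariate, 55 and 53 with limma on log2(FPKM + 1) and log2(FPKM + 0.1), from 3 to 61 with 1 library left out, and 23 without control RNAi replicate 1 and replicate 3 labelled *svp* RNAi, a setting chosen after seeing the data. Of the 3 tested members, 0 or 1 was called when 1 library was left out. *PGRP-SC2* was the 1 member called with DESeq2 size factors (adjusted p = 0.0458), without the filter (0.0145), with the midgut covariate (0.000559) and with limma (0.00194 and 0.00208), but not with upper quartile scaling (0.0601) or a mean of at least 10 counts (0.0566), and its log2 fold change ranged from -4.57 to -3.95 over all settings, with -4.24 when summed with *PGRP-SC1a* and *PGRP-SC1b*. *PGRP-SB1*, at -0.75, stayed below 0 and was not called in 16 settings, but ranged from -1.29 without replicate 2 labelled *svp* RNAi to -0.24 without control RNAi replicate 3, and its unadjusted p was 0.0221 with the midgut covariate and 0.0367 without control RNAi replicate 1 (edgeR adjusted p = 0.345 and 0.334). *PGRP-LB*, at -0.08, was above 0 with the midgut covariate (0.0524), with limma (0.0550 and 0.0571) and with 1 library left out in 4 of 6 fits (range -0.39 to 0.17). Of the antibacterial peptide genes, 1, *CecA2*, was called with the midgut covariate (log2 fold change 1.45, adjusted p = 0.0363). The cause of these shifts was not tested. With the replicate number as a block, 27 genes were called, among them *PGRP-SC2* (-4.17, adjusted p = 0.00581), and *PGRP-LB* had a log2 fold change of 0.0154. Same-numbered libraries deviated together in 2 of 3 cases (correlations of 0.503, 0.538 and -0.306). Control RNAi replicate 3 also did so with replicate 2 labelled *svp* RNAi (0.502), and control RNAi replicate 1 with replicate 3 labelled *svp* RNAi (0.437). The remaining pairs of different number were negative, from -0.682 to -0.355. These correlations cannot decide whether the numbers pair the libraries, since libraries of different number deviated together as well. Alternatives for *PGRP-SB2*, *PGRP-SC1a* and *PGRP-SC1b* gave no fitted value where these genes failed the filter, and their counts of 0 to 9 per library set the limit of detection.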

Other observations

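The antibacterial peptide genes differed in whether their libraries ranked like those of the amidases. Ranked by CPM within each group, 6 of the 12 IMD target genes, *AttA*, *AttB*, *AttC*, *Dpt*, *DptB* and *Dro*, put the 3 libraries of both groups in the same order as *PGRP-SB1*, beside 3.88% of the 9276 other genes tested. For *PGRP-LB* it was 0 of 12 (11.3% of the other genes), and for *PGRP-SC2* 1 of 12, *AttD* (12.6%). *Dro*, which encodes drosocin, had counts of 802, 1042 and 2366 under control RNAi against 525, 2784 and 339 in the other group, and *Dpt*, a diptericin, had counts of 411, 500 and 1263 against 753, 1771 and 398. As for *PGRP-SB1*, control RNAi replicate 3 was the highest control and replicate 3 labelled *svp* RNAi the lowest of its group. *AttA*, *AttB* and *Dro* lie close together on chromosome 2R, as do *Dpt* and *DptB*, so the 6 genes cannot be counted as independent. All the genes compared share the scaling of each library and were compared after their values were seen, so the order is a description of 6 libraries.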
